A study of Homo sapiens with 6 samples.

Results

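Keratins and keratin-associated proteins were followed in 786O cells (also written 786-O), an established line from a human clear cell renal cell carcinoma, on 6 single-colour Affymetrix arrays. Cells received a short hairpin RNA (shRNA) by lentivirus: the control hairpin labelled shNC in 3 samples and a hairpin against PLEKHO1 in the other 3 (shPLEKHO1), with no other agent or time named for either group. The labels do not say how many hairpins or clones were used, so effects of a hairpin on other transcripts cannot be told apart from those of PLEKHO1. They also do not say whether the replicates of a group were grown apart, and the spread behind each p-value may therefore be technical. Genes were taken by symbol: every probe set that the array's annotation gives exactly 1 symbol, starting with KRT or KRTAP and a number. This gave 194 probe sets for 135 of the 18132 genes tested, 53 with a KRT symbol and 82 with a KRTAP symbol. Of the 53, 6 are pseudogenes or antisense transcripts. Each gene was read from the probe set with the highest mean over the 6 arrays.

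Keratins are the intermediate filament proteins of epithelial cells. A filament needs a type I (acidic) and a type II (basic) keratin that pair with each other, and KRT8 with KRT18 is the pair of simple, single-layered epithelia such as the kidney tubule, with KRT19 and KRT7 as further simple-epithelial keratins. Others belong to stratified epithelia (KRT5, KRT14, KRT15, KRT10) or to the hair shaft and its root sheath. Keratin-associated proteins are small matrix proteins, rich in cysteine or in glycine and tyrosine, that embed the keratin filaments of hair.

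Median intensity lay between 55.7 and 57.1 on the 6 arrays. PLEKHO1 read 135, 143 and 126 with shNC and 110, 116 and 97.4 with shPLEKHO1 (-0.32 ± 0.08 on the log2 scale, limma adjusted p = 0.0123). This 1.25-fold fall rests on 1 probe set, whose mean of 121 lay above 19 of the array's 23 background probe sets. An exact permutation test, two-sided, gave p = 0.1, which is the smallest that 3 against 3 arrays allow. Of 15 listed markers of renal tubule and clear cell carcinoma, 12 were measured and 12 lay above GC20, one of the array's background probe sets (mean intensity 57.5), PAX8 (mean intensity 389), PAX2 (122) and VIM (15095) among them. The same level was passed by 3 of 7 keratinocyte, 1 of 8 fibroblast, 2 of 7 endothelial and 1 of 6 leukocyte markers. It was passed by 56.3% of all genes and was chosen after seeing the data. VIM also exceeded the highest background probe set, GC25 (2063), but PAX8 and PAX2 did not. The fibroblast marker FAP (6.74) and the leukocyte marker PTPRC (6.61) lay under the median background probe set. Most other markers of their lists lay above it, among them COL1A1 (69.0), PDGFRB (37.7), CD68 (137) and CSF1R (47.1). No marker was listed at 0. Of the 12 renal markers 2 rose and 5 fell. PAX8 (-0.25 ± 0.06) and PAX2 (-0.33 ± 0.08) were among those that fell, and VIM did not pass (0.04 ± 0.04). LUM was the fibroblast marker that rose (0.81 ± 0.07), EGFL7 the endothelial marker that fell (-0.35 ± 0.06), and no leukocyte marker changed. Summed over the list, fibroblast markers read 195 to 213 with shNC and 204 to 243 with shPLEKHO1, endothelial markers 338 to 377 and 307 to 337, and leukocyte markers 215 to 228 and 234 to 259. Differences are given as shPLEKHO1 minus shNC in log2(intensity + 1), ± SE with n = 3 arrays per group. "Rose", "fell" and "changed" mean an adjusted p under 0.05 in limma over all 18132 genes.

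Of the 135 genes, 7 rose, 5 fell and 123 did not pass the threshold. That is 8.89% changed, against 34.1% of all genes tested, with 18.1% of all genes up and 2895 of 18132 down. Among the 53 keratins 6 rose and 4 fell (18.9%), and among the 82 keratin-associated genes 1 rose and 1 fell (2.44%). The family's median log2 difference was 0.02, and that of all genes was 0.01. By level, 55.3% of all genes above the median mean intensity (81.7) changed and 12.9% of those at or below it. Of the 30 family members above that median 7 changed (23.3%), and of the 105 at or below it 5 did (4.76%). The count of 12 was 7 without shNC replicate 3, 7 without shPLEKHO1 replicate 3 and 16 without shPLEKHO1 replicate 2. The 7 genes that passed in the same direction in each of 16 alternative fits were KRT8, KRT18, KRT19, KRT10, KRT80, KRT15 and KRTAP2-3.

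**Figure D1:**
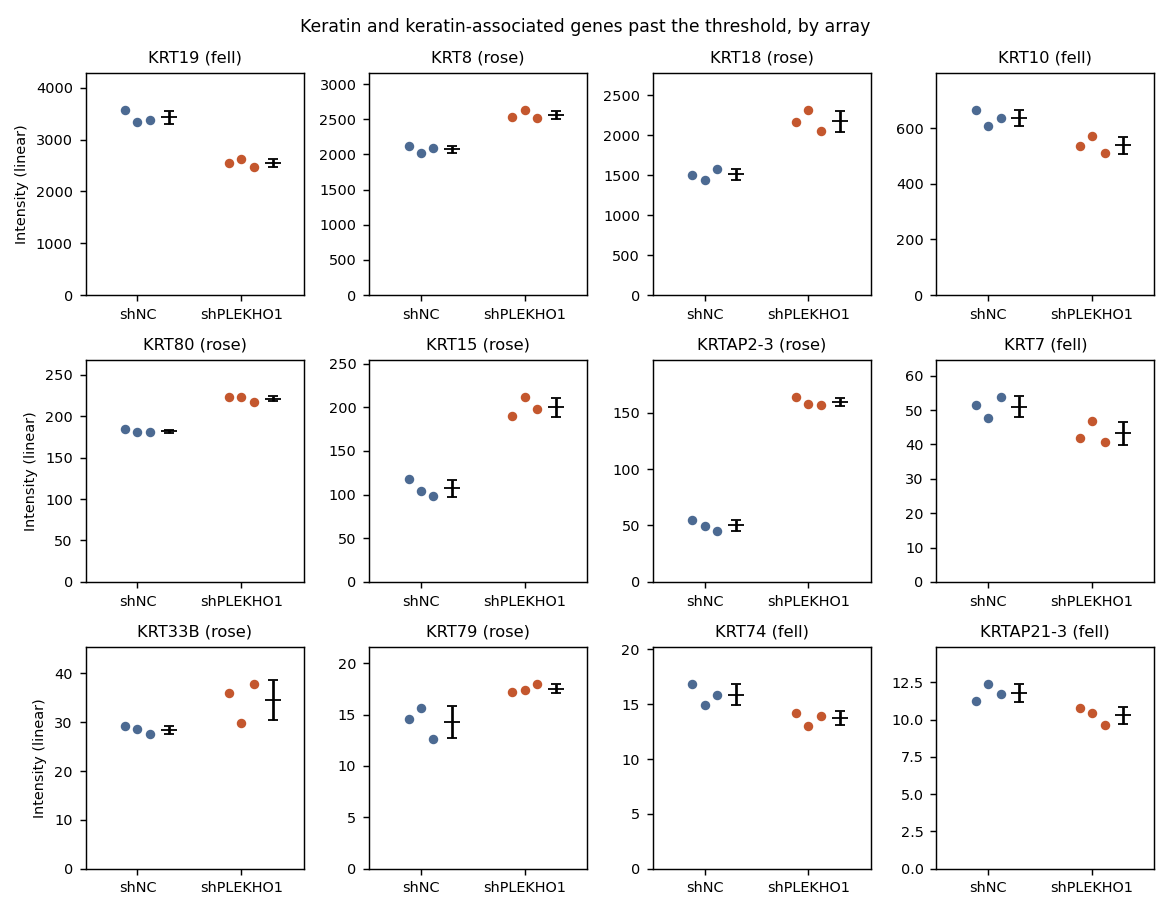
Intensity on the deposited linear scale (vertical axes, each starting at 0) of the 12 changed genes on the 3 shNC arrays (blue) and the 3 shPLEKHO1 arrays (orange), with the mean and SD in black beside each group. KRTAP2-3 (3.19-fold) and KRT15 (1.88-fold) show the largest folds, while KRT7 and KRT33B have a shPLEKHO1 replicate 2 value close to the shNC values.

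KRT8 and KRT18, the keratin pair of simple epithelia, were higher with shPLEKHO1, while KRT19 was lower. KRT18, the type I partner, read 1506, 1439.6 and 1575 with shNC and 2157, 2310.1 and 2051 with shPLEKHO1. All shPLEKHO1 values lay above all shNC values, and the rise was 1.43-fold (0.52 ± 0.06, limma adjusted p = 0.00034). Its other probe set rose by 0.53 ± 0.06, and both carry the suffix _x_at, which Affymetrix gives to sets in which some probes match other transcripts too.

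KRT8, the type II partner, read 2120.1, 2018 and 2085 with shNC and 2539.7, 2629.9 and 2522 with shPLEKHO1. The groups did not overlap, and the rise was 1.24-fold (0.32 ± 0.04, limma adjusted p = 0.000904). KRT8 had 8 probe sets, all with the same suffix _x_at. Of these 7 rose, by 0.21 to 0.32, and 1 did not pass (0.15 ± 0.06, limma adjusted p = 0.0806 over all probe sets). KRT8 and KRT18 are neighbours in the RefSeq gene order. KRT78, on the other side of KRT8, was at 0.01.

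The 250 bases before the RefSeq start of KRT8 (GRCh38.p14, chr12:52926470-52926719, minus strand) are shown because 1 of 5 searched motifs lies close to the start. Capitals mark an ETS site (CCGGAA, here read from the other strand), the motif of the transcription factor family that holds ETS1 and ELF3, whose own values are given with the regulators. The motif is present before 14.8% of all starts and 19.3% of those of protein-coding genes. Which start the KRT8 transcripts of these cells use was not tested. Such a match describes the letters only.
KRT8: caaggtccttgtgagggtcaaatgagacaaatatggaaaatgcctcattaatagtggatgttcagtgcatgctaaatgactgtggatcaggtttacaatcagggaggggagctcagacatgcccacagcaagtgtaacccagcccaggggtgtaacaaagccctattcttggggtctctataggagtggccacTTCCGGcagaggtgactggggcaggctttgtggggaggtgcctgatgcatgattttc

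KRT19, a type I keratin with a very short tail that also pairs with KRT8, went the other way. It read 3568, 3335 and 3385 with shNC and 2554, 2618 and 2466 with shPLEKHO1. The groups were separated with no overlap, and the fall was 1.33-fold (-0.41 ± 0.04, limma adjusted p = 0.00025). KRT7, the type II keratin of ductal epithelia, read 51.5, 47.8 and 53.8 with shNC and 41.9, 46.9 and 40.8 with shPLEKHO1. It fell near the threshold (-0.23 ± 0.07, limma adjusted p = 0.0468), and its groups overlapped after normalization. The call was lost when any of shNC replicate 1 or 3 or shPLEKHO1 replicate 1 or 3 was left out, with adjusted p up to 0.146. KRT20, the fifth simple-epithelial keratin measured, was at 0.09 ± 0.05 and did not pass. Of these 5 genes, then, 2 rose and 2 fell.

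The next 20 genes are keratins of stratified epithelia together with others outside the simple, hair and root sheath groups. KRT15, KRT10, KRT80 and KRT79 changed, and the other 16 did not pass. KRT15, a type I keratin of basal cells and hair follicle stem cells, read 118, 104 and 98.6 with shNC and 190.5, 212 and 198 with shPLEKHO1. Every shPLEKHO1 array was higher than every shNC array, and the rise was 1.88-fold (0.91 ± 0.07, limma adjusted p = 4.61e-05). KRT15 stands next to KRT19 in the RefSeq gene order, so a rise and a fall occurred in neighbouring type I genes; KRT13, on the other side of KRT15, was at -0.09, and KRT9, on the other side of KRT19, at 0.20, and neither passed.

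KRT10, the type I keratin of the upper epidermis, read 665, 607 and 636 with shNC and 536, 572 and 509.9 with shPLEKHO1. The groups did not overlap, and the fall was 1.19-fold (-0.25 ± 0.05, limma adjusted p = 0.00642). The antisense transcript KRT10-AS1 did not pass (-0.02 ± 0.04), with values between 269 and 287 on all arrays. The upstream sequence of KRT10 (chr17:40822615-40822864, minus strand) has a TATA box (TATAAA, in capitals) close to the start, the feature that many of the family's promoters share.
KRT10: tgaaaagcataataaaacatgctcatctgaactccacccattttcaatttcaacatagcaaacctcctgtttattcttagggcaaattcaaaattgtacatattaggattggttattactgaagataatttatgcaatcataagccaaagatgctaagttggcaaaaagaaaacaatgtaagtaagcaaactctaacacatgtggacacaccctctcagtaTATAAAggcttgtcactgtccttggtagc

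KRT80, a type II keratin found in many epithelia, read 184, 181 and 180.5 with shNC and 223, 223 and 217 with shPLEKHO1. Its spread within groups was small, and the rise was 1.23-fold (0.30 ± 0.04, limma adjusted p = 0.00117). KRT80 and KRT7 are neighbours among the type II genes and, as given above, moved in opposite directions. KRT79 read 14.6, 15.6 and 12.6 with shNC and 17.2, 17.4 and 17.98 with shPLEKHO1 (0.27 ± 0.08, limma adjusted p = 0.0285). The groups did not overlap, but the call was lost without shNC replicate 3, shPLEKHO1 replicate 2 or shPLEKHO1 replicate 3, with adjusted p up to 0.0908. KRT5 and KRT14, the pair of basal keratinocytes, read 45.5 to 59.2 and 54.2 to 66.0 over the 6 arrays and were at -0.09 and -0.02. Other keratinocyte markers did not pass either (DSG3 at 0.09, TRIM29 at 0.09, CDH3 at 0.10, SFN at 0.05). The summed level of the 7 keratinocyte markers went from 410 to 429 with shNC to 505 to 528 with shPLEKHO1, and KRT15 was the only 1 of them that changed.

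**Figure D2:**
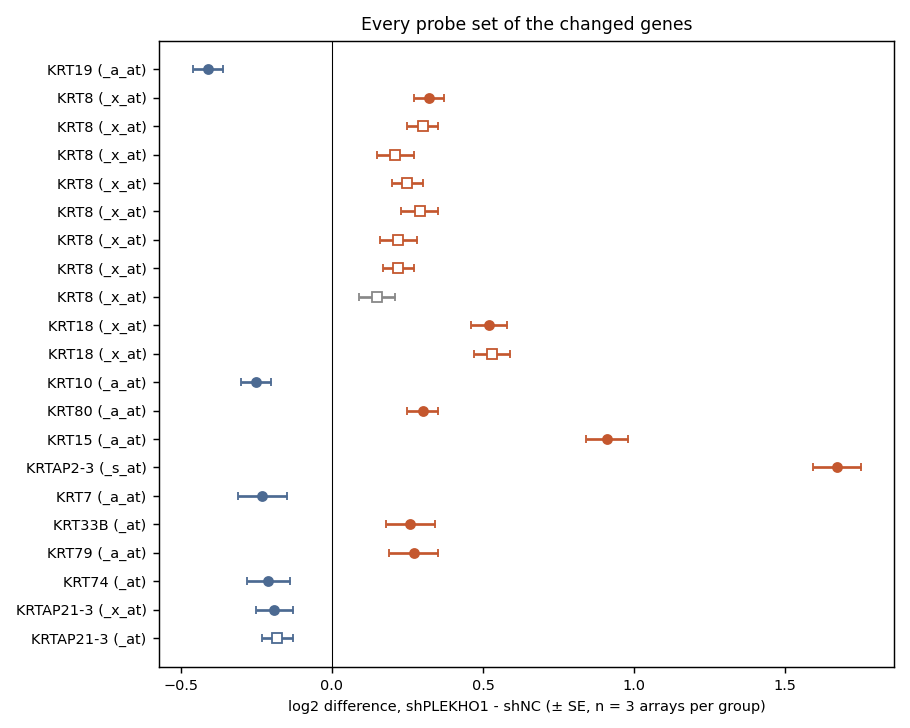
Log2 difference with its SE (horizontal axis, n = 3 arrays per group) for each probe set of the 12 changed genes, filled circles for the probe set chosen for the gene and open squares for its others, orange for a rise, blue for a fall and grey for not past the threshold. The 8 KRT8 and 2 KRT18 probe sets lie above 0, both KRTAP21-3 probe sets lie below 0, and the other 9 genes rest on 1 probe set each.

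Of 13 hair keratins KRT33B rose and 12 did not pass, and of 9 root sheath keratins KRT74 fell and 8 did not pass. All of these 22 genes but KRT33A had a mean under the median of all genes, a level at which 12.9% of all genes changed, so the count is near the background. KRT33B, a type I keratin of the hair cortex, read 29.2, 28.5 and 27.6 with shNC and 35.9, 29.8 and 37.8 with shPLEKHO1. The shPLEKHO1 replicate 2 value lay just above the shNC range, and the rise (0.26 ± 0.08, limma adjusted p = 0.0424) was lost in 5 of the 6 fits that leave out an array, with adjusted p up to 0.124. KRT74, a type II keratin of the inner root sheath, read 16.9, 14.96 and 15.8 with shNC and 14.2, 12.97 and 13.97 with shPLEKHO1 (-0.21 ± 0.06, limma adjusted p = 0.0376). This call was lost in 5 of those 6 fits too, with adjusted p up to 0.102. None of the 6 pseudogenes and antisense transcripts passed (-0.03 to 0.14), including KRT18P55, a copy of KRT18, which was at 0.14.

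KRTAP2-3, a high-sulphur keratin-associated protein, showed the family's largest difference. It read 55.3, 49.9 and 44.8 with shNC and 164, 158 and 157 with shPLEKHO1. The lowest shPLEKHO1 array was far above the highest shNC array, and the rise was 3.19-fold (1.67 ± 0.08, limma adjusted p = 5.7e-06). On shNC replicates 2 and 3 it lay under the background probe set GC20, which read 57.8 on each, and the part of background in this fold was not tested. A single probe set measured it, with the suffix for sets that match transcripts of several genes, and the KRTAP2 genes are close copies of each other, so the signal cannot be assigned to KRTAP2-3 alone. The 3 other KRTAP2 genes did not pass: KRTAP2-1 was at -0.07, KRTAP2-2 at 0.03 and KRTAP2-4 at 0.02. Their mean intensities were 16.5, 9.22 and 7.24. KRTAP2-4 thus lay under the median background probe set (7.82), where a lack of change says little about the transcript. KRTAP2-2 and KRTAP2-4 are the genes next to KRTAP2-3. The upstream sequence of KRTAP2-3 (chr17:41060115-41060364, minus strand) carries a TATA box in capitals at nearly the same distance from the start as in KRT10.
KRTAP2-3: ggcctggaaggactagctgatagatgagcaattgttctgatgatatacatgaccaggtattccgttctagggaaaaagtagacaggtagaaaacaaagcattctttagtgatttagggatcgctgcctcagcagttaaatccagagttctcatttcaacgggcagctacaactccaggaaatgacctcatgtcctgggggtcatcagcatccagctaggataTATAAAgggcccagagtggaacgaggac

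The other keratin-associated genes gave little. Of 36 high-sulphur genes KRTAP2-3 alone changed, of 26 ultra-high-sulphur genes none did (with differences from -0.13 to 0.11), and of 20 glycine- and tyrosine-rich genes KRTAP21-3 fell. Over all 82 genes, 2 passed the adjusted threshold in limma and 6 had an unadjusted p under 0.05. KRTAP21-3 was dim, at 11.2, 12.4 and 11.7 with shNC and 10.8, 10.4 and 9.64 with shPLEKHO1 (-0.19 ± 0.05, limma adjusted p = 0.0244). Both of its probe sets fell, but the call was lost without shNC replicate 2, shNC replicate 3 or shPLEKHO1 replicate 3. The count of 2 changed keratin-associated genes moved with the arrays: 5 without shNC replicate 1, 4 without shPLEKHO1 replicate 2, and 1 without either shNC replicate 3 or shPLEKHO1 replicate 3. For the keratins it went from 10 to 6 without shNC replicate 3 and to 6 without shPLEKHO1 replicate 3.

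The largest of these families are KRTAP10, with 11 genes measured, and KRTAP5, also with 11. KRTAP10 differences ran from -0.11 to 0.23 and KRTAP5 differences from -0.13 to 0.11, and no gene of either passed. KRTAP10-3 read 305, 392 and 381 with shNC and 444, 394 and 418 with shPLEKHO1 (0.23 ± 0.12, limma adjusted p = 0.185). The shNC replicate 1 value was the lowest and the others were close together. KRTAP6-1 read between 1424 and 1719 on its chosen probe set, which can match several genes, and was at 0.08 ± 0.08. Its other probe set read 21.3 to 31.6 and was at 0.17, not past the threshold.

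**Figure D3:**
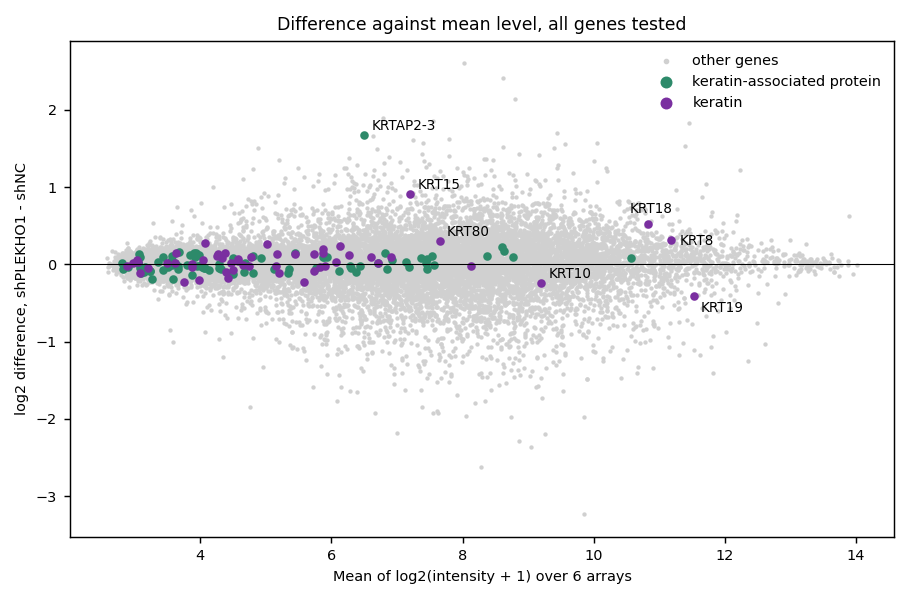
Log2 difference (vertical axis) against the mean of log2(intensity + 1) over 6 arrays (horizontal axis) for all 18132 genes, with keratins in purple and keratin-associated genes in green. The 123 members that did not pass lie between -0.23 and 0.24, and the 7 labelled genes are those that changed in every alternative.

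The array carries 23 background probe sets, named GC03 to GC25 for the number of G and C bases in their probes, which read unspecific binding. Their means rose from 4.80 (GC03) to 7.82 for the median set (GC14), 57.5 for GC20 and 2063 for GC25. The highest of them, GC25, was exceeded by 2 of the 135 genes (1.48%), KRT19 and KRT8, and by 3.08% of all genes. Both changed, but the share of all genes above GC25 that changed was not counted. GC20 was exceeded by 41 family members (30.4%) and 56.3% of all genes, and the median set by 121 members (89.6%) and 96.2% of all genes. For GC20 the share was 28.3% of the keratins and 31.7% of the keratin-associated genes. Of the changed genes, KRT18, KRT10, KRT80, KRT15 and KRTAP2-3 lay between GC20 and GC25 by their mean over 6 arrays, KRTAP2-3 only through its shPLEKHO1 arrays, and KRT7, KRT33B, KRT79, KRT74 and KRTAP21-3 lay below GC20. The base composition of the genes' own probes was not used here, so a gene cannot be matched to the background set of its composition.

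The GC-rich background probe sets themselves read higher with shPLEKHO1. GC25 read 1936, 1923 and 1919.98 with shNC and 2293, 2096 and 2209 with shPLEKHO1 (0.18 ± 0.06, limma adjusted p = 0.038 over all probe sets), the 1 of the 23 that passed. From GC15 up the differences lay between 0.02 and 0.19, and under GC15 between -0.01 and 0.02. Of these 11 GC-rich sets 10 were lowest on shNC replicate 1. That array held the lowest value of 34 of the 135 family members, and shPLEKHO1 replicate 2 that of 37. The part of this shift in the differences of the members was not tested.

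**Figure D4:**
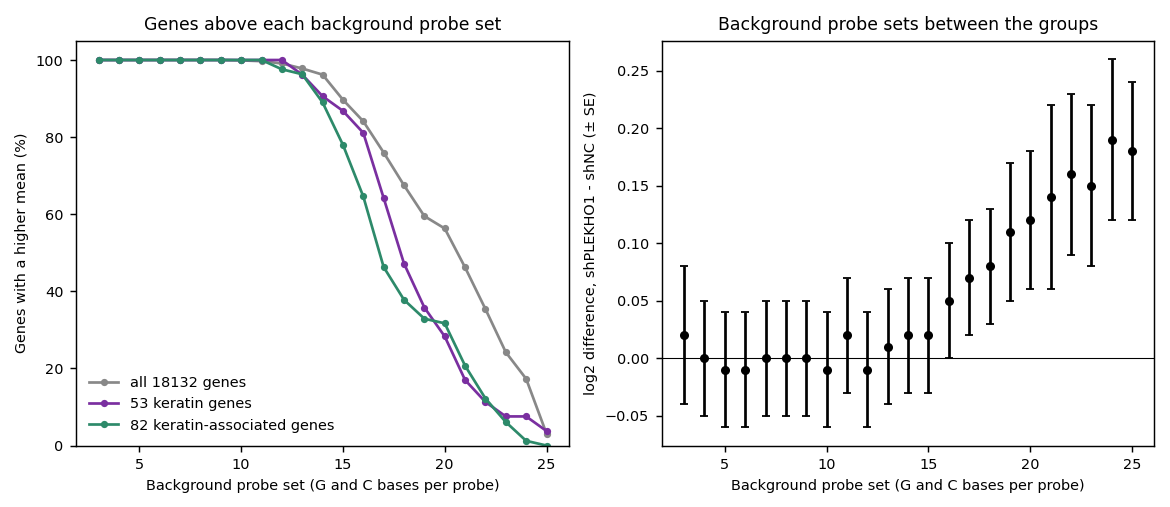
Left, share of keratin genes (purple), keratin-associated genes (green) and all genes (grey) with a mean above each background probe set, ordered by its G and C bases; right, log2 difference of each background probe set with its SE (n = 3 arrays per group). The purple and green curves run below the grey one from GC13 to GC24, and the background difference grows from near 0 under GC15 to 0.19 at GC24.

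Values of 1 group lay wholly above or below the other in 23 of the 135 genes, against 44.9% of all genes tested. These were 13 keratins (24.5%) and 10 keratin-associated genes (12.2%), and 11 of the 23 had a changed call.

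Many upstream sequences of the family hold a motif that the choice by symbol did not use. RefSeq upstream sequences were matched for 33 keratin and 69 keratin-associated genes, among them 7 of the 12 changed genes. Their median G and C content was 41.6%, against 58% for all genes with such a sequence. The part of this difference in the motif counts was not tested. A TATA box (TATAAA, either strand, within 250 bases) was found before 54.5% of these keratin genes and 76.8% of these keratin-associated genes, against 11.1% of all genes with such a sequence and 9.23% of protein-coding genes. On the gene's own strand and starting 25 to 35 bases before the start, it was found before 42.4% and 43.5%, against 3.56% of protein-coding genes. A GC box (GGGCGG) was found before 15.2% of the keratins and 0 of 69 keratin-associated genes, against 42.3% of all. The AP-1 site (TGANTCA) was found before 0 of 33 keratins and 8.70% of keratin-associated genes (all: 6.60%), the ETS site before 12.1% of keratins and 0 of 69 keratin-associated genes, and the E2 box (CACCTG) before 18.2% and 17.4% (all: 17.5%). All motifs were searched on both strands and none overlaps another by its letters. Among the 7 changed genes with a sequence, KRT10, KRTAP2-3, KRT33B and KRTAP21-3 had a TATA box, KRT8 and KRT74 an ETS site, and KRT79 and KRT33B an E2 box.

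The partners of keratins were read from lists, whose counts stand against the 34.1% of all genes that changed (55.3% above the median mean intensity, 12.9% at or below it). Of 16 other intermediate filament genes 3 fell and none rose (median -0.01): the nuclear lamins LMNB2, from 1117 ± 40.7 to 506 ± 24.5 (SD, n = 3; -1.15 ± 0.05), and LMNB1 (-0.35 ± 0.04), and the muscle filament protein SYNM (-0.34 ± 0.05). SYNM fell with 1 of its 2 probe sets. VIM, the vimentin of mesenchymal and clear cell carcinoma cells, did not pass (0.04). Of 14 desmosome genes, which anchor keratin filaments at cell contacts, 3 rose and 1 fell (median 0.04). The cadherin DSC2 (0.40 ± 0.05), the plakophilin PKP4 (0.40 ± 0.06) and PERP (0.32 ± 0.05) rose, and the cadherin DSG2 fell (-0.23 ± 0.05). PERP had 1 probe set that fell beside 2 that rose, and its mean over probe sets did not pass (0.08, limma adjusted p = 0.227). Of 10 hemidesmosome and plakin genes, which tie filaments to the matrix and to each other, the linker DST rose (0.33 ± 0.05; 5 of 8 probe sets up, 1 down) and PLEC, plectin, fell (-0.17 ± 0.05). This count of 2 was 1 without shNC replicate 2, shNC replicate 3, shPLEKHO1 replicate 1 or shPLEKHO1 replicate 3.

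Among 19 genes coding for proteins that bind, modify or organise keratins, 7 rose and 3 fell (median 0.02); 17 of the 19 lay above GC20, and the count is near the 55.3% of brighter genes. DNAJB6, a co-chaperone that binds KRT18, rose with all 5 probe sets (0.30 ± 0.04). FAM83H, which organises keratin filaments, rose (0.33 ± 0.05), as did the kinase PRKCE (0.26 ± 0.04, 1 of 2 probe sets up). The 14-3-3 protein YWHAH fell (-0.26 ± 0.05). Of the same family, YWHAE rose (0.25 ± 0.06), and YWHAZ (0.18 ± 0.06) and SFN (0.05 ± 0.06) did not pass. Of 27 genes of the cornified envelope 2 fell, LCE3D (-0.37 ± 0.05, 1 of 2 probe sets down) and RPTN (-0.16 ± 0.05). RPTN had a mean of 6.12, under the median background. Without shNC replicate 1, shPLEKHO1 replicate 1 or shPLEKHO1 replicate 3 the count was 1. Of 22 genes of the hair follicle and shaft FOXQ1 rose (0.41 ± 0.06), and GATA3 (-0.34 ± 0.07), S100A3 (-0.47 ± 0.10) and LEF1 (-0.23 ± 0.08) fell. LEF1 passed narrowly (limma adjusted p = 0.0495), with 3 of 9 probe sets down, and its call was lost in 5 of the 6 fits that leave out an array, with adjusted p up to 0.138. FOXQ1, GATA3 and LEF1 are transcription factors of the hair follicle, and S100A3 is a calcium-binding protein of the hair cuticle.

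Of 32 transcription factors known to act on keratin genes, 9 were up and 5 down past the threshold (median 0.08). ELF3, an epithelial ETS factor, fell from 792 ± 30.9 to 394 ± 13.7 (SD, n = 3; limma adjusted p = 5.75e-06), with all 3 of its probe sets. ETS1, of the same family, rose from 1918 ± 88.8 to 3153 ± 104 (0.72 ± 0.05), also with all 3 probe sets. The AP-2 factor TFAP2C, which acts in epidermis and other epithelia, rose (0.64 ± 0.05). Its relative TFAP2A fell (-0.23 ± 0.05, 2 of 7 probe sets down), and TFAP2B did not pass (-0.11 ± 0.11). FOSL2, a subunit of AP-1, fell (-0.49 ± 0.05) with 4 of 5 probe sets down and 1 up. Other AP-1 subunits of the list went both ways: JUN (0.53 ± 0.05) and JUNB (0.73 ± 0.07) rose, FOSL1 fell (-0.38 ± 0.05), and FOS (0.08) and JUND (-0.02) did not pass. These lists are small and were chosen with results of these arrays known, so their counts only describe them.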

How the data were processed

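Total RNA of the 6 samples was labelled with biotin and hybridised to 1 array each. Per the labels and the submitters' processing notes, the authors used Affymetrix Expression Console and deposited 1 linear intensity per probe set and array. Its version, its algorithm and any normalization: not given in the sources used here. Of 49395 probe sets, 44988 had exactly 1 symbol and no control name, and 44961 of these matched the RefSeq gene table (GRCh38.p14), used for names and neighbours. Here values became log2(intensity + 1) and were quantile normalized. The groups were compared in limma 3.58.1 under R 4.3.3 (lmFit, eBayes, no covariates), and p-values were adjusted by Benjamini-Hochberg over 18132 genes, or over all probe sets where stated. The fit was tested on simulated data. The pseudocount and a background equal in both groups understate changes of dim genes. The GC-rich background was higher with shPLEKHO1, and its part in the differences of dim genes was not tested. The number of arrays limits the precision.

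The genes described and the 12 lists were chosen with earlier results of these data known. Named are members past the threshold, members above the highest background probe set, and up to 4 changed genes per partner list by smallest p; others named for their role, position or probe sets were added after their values were seen. Probe sets with several symbols entered no gene test. Alternatives changed the normalization, pseudocount, low-level filter, probe set rule, variance model, array weights or replicate block, or left out 1 array.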

Additional observations from a re-analysis of the deposited data

Results flagged for a closer look

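Outside the gene tests lay 10 probe sets that carry a keratin symbol together with another gene's symbol, of which 1 changed. The probe set shared by KRT34, a hair keratin next to KRT33B, and LOC100653049 read 43.8, 46.1 and 52.7 with shNC and 78.2, 64.5 and 62.6 with shPLEKHO1. All shPLEKHO1 values lay above the shNC values, with a log2 difference of 0.53 ± 0.09 (limma adjusted p = 0.00315 over 49293 probe sets). Which of the genes it reads cannot be told from its annotation.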

How the results depend on the processing

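KRT19, KRT8, KRT18, KRT10, KRT80, KRT15 and KRTAP2-3 kept direction and call in each of 16 alternatives, and no named gene reversed. The narrow calls of KRT7 (adjusted p from 0.0152 to 0.146), KRT33B (0.00661 to 0.124), KRT79 (0.0182 to 0.0908), KRT74 (0.0192 to 0.102) and KRTAP21-3 (0.0108 to 0.102) were each lost in 4 to 9 of them. Leaving out 1 array, which also leaves fewer samples, gave 7 to 16 changed genes in all, 6 to 12 keratins and 1 to 5 keratin-associated genes. It gave 1 to 3 changed hemidesmosome and plakin genes and 1 to 2 cornified envelope genes. Same-numbered arrays of the groups did not deviate together (correlations of -0.16, -0.16 and -0.05). These values show no shared shift by number, but cannot tell whether the samples were made in pairs. With the replicate block 7 genes changed, 6 keratins and 1 keratin-associated gene, with 1 hemidesmosome and plakin gene and 1 cornified envelope gene. The count of changed keratin-associated genes was 1 with a pseudocount of 16, 1 without the lowest 30% of genes and 4 with the mean of probe sets. The filter of the lowest 30% took out KRTAP21-3, KRT74 and KRT79 before the fit, so it could not call them. Other intermediate filament genes gave 5 with the mean of probe sets, 6 with each probe set on its own and 5 with a variance trend. Hemidesmosome and plakin genes gave 1 with median centring, 5 with the mean of probe sets and 5 with each probe set on its own. Cornified envelope genes gave 1 with median centring, 1 without normalization between arrays, 4 with the mean of probe sets and 4 with array weights. The causes of the other shifts were not tested. Against the highest background probe set, 2 members lay above background, and 1 did when a gene was read as the mean of its probe sets. Against the median background probe set the count was 121, and against GC20 (a level chosen after seeing the data) it was 41. Low signal over background limits most of the family.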
